A study of Mus musculus with 6 samples.

Results

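The circadian clock genes described here are Arntl, Clock, Npas2, Per1, Per2, Per3, Cry1, Nr1d1, Nr1d2 and Dbp, chosen by gene symbol, and they make up 10 of the 31054 features in the count tables. All 10 were detected in the lung. Single cells from the lungs of 6 male C57BL/6 mice aged 21 months, with 1 library per mouse, were sequenced with the GEM-X 3' chemistry of 10x Genomics. Captured transcripts were counted by their molecular barcodes (UMIs), which were summed over cells, and levels are given as CPM, the UMIs of a gene per 1000000 UMIs of the same library or cell gate. Cells were sorted on the leukocyte marker CD45 and combined at 20000 negative to 9000 positive cells, so the share of immune cells was set by the sort.

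For the 3 p16-DTR-labelled libraries the genotype was p16-CreERT2/R26-LSL-DTR. In these animals a tamoxifen-activated Cre recombinase, driven by the p16 (Cdkn2a) promoter, switches on a diphtheria toxin receptor in cells where that promoter is active. The 3 control libraries came from p16-CreERT2 mice, which carry the Cre without the receptor allele. Mice of both groups received tamoxifen on 5 days, then diphtheria toxin on 5 days after an interval of 2 weeks, and the lungs were taken 2 weeks after that. The labels give no time of day of harvest and no batch. As a check of the labels, Cdkn2a stood at 7.10, 8.57 and 7.31 CPM in the p16-DTR-labelled libraries and at 1.15, 2.60 and 2.84 in the controls. Cdkn2a was thus higher in every p16-DTR-labelled library, the group in which cells with an active p16 promoter were to be removed, and for that reason the groups are named by their labels throughout.

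The clock is a transcriptional feedback loop that runs in nearly every cell. BMAL1 (the product of Arntl) pairs with CLOCK or NPAS2 and binds E-boxes to drive the Per and Cry genes, whose proteins return to block it, and the same pair drives Nr1d1, Nr1d2 and Dbp. The REV-ERB proteins encoded by Nr1d1 and Nr1d2 repress Arntl and Npas2, so that in lung and other tissues Arntl and Npas2 peak in a different phase of the day from Dbp and Nr1d1.

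The deposited matrices held 13482 to 17332 barcodes and 254200305 to 344421685 UMIs per library, of which 13025 to 16884 barcodes were retained. Cells were assigned to marker gates, and 19 of 32 gates held at least 50 cells in every library. Together these 19 gates took 74.8% to 78.7% of retained cells, and 10.2% to 12.6% of cells had no lineage. Pairs of libraries shared 59 to 94 barcodes, at most 0.586% of the smaller library. No library stood at the sampling noise of another of its group. The chi-square per degree of freedom was 123 to 164 between p16-DTR-labelled libraries and 92.8 between control replicates 2 and 3. Control replicate 1 stood further off, at 372 from control replicate 2 and 313 from control replicate 3. None of the clock genes was a gate marker.

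The forward, activating part of the loop differed between cell types most in Npas2. Npas2, the CLOCK paralogue, averaged 92.5 ± 21.5 CPM in epithelial cells and 85.5 ± 46.8 in mesenchymal cells (SD, n = 6 libraries), against 4.10 ± 2.02 in endothelial and 3.21 ± 0.635 in immune cells. Its highest gates were peribronchial fibroblasts at 185 ± 41.8 and adventitial fibroblasts at 181 ± 43.8, and its lowest was B cells at 0.388 ± 0.406, a 477-fold range. Clock itself, the more even partner, spanned only 6.03-fold, from 170 ± 16.8 in pericytes to 28.2 ± 4.15 in neutrophils. Arntl, the shared subunit, was highest in gamma-delta T cells at 164 ± 24.9 and lowest in neutrophils at 11.2 ± 1.63. By edgeR's quasi-likelihood test with the library as a block, Arntl stood 0.68 higher in the mesenchyme than in the mean of the other lineages on the log2 scale (SE 0.07, adjusted p = 4.53e-08, edgeR).

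The repressing part of the loop was spread differently. Per1, an E-box target that also answers acutely to glucocorticoids and cAMP, was highest in neutrophils at 255 ± 24.3 CPM and lowest in lymphatic endothelium at 35.4 ± 4.26. Its immune level of 133 ± 7.17 exceeded the other lineages by 1.24 on the log2 scale (SE 0.08, adjusted p = 6.19e-12, edgeR), and its epithelial level of 43.2 ± 7.57 was below them by 1.23. Per2 and Per3, the other period repressors, were both highest in ciliated cells, at 63.1 ± 8.83 and 58.7 ± 6.49. The lowest Per3 level was 0.711 ± 0.290 in neutrophils, an 82.6-fold range, whereas Per2 in neutrophils was 37.5 ± 8.70 and its lowest gate was the gamma-delta T cells at 1.63 ± 0.796. Cry1, the cryptochrome that forms the repressor complex with the PER proteins, was highest in gamma-delta T cells at 86.1 ± 11.6 and lowest in venous endothelium at 12.5 ± 3.92. Neutrophils were therefore the gate with the highest Per1 and the lowest Arntl, Clock, Per3 and Nr1d2.

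Dbp encodes a PAR bZIP transcription factor that carries the clock to output genes. Over the 6 libraries, the REV-ERB genes and Dbp had their highest lineage means in the mesenchyme. In the controls alone, mesenchyme and epithelium were close for Dbp (7.65 ± 5.83 and 7.89 ± 3.47 CPM) and Nr1d1 (38.6 ± 18.5 and 37.5 ± 4.45). Nr1d1 averaged 51.9 ± 19.02 CPM in mesenchymal, 36.3 ± 3.27 in epithelial, 8.39 ± 4.47 in endothelial and 3.13 ± 0.667 in immune cells. The mesenchymal level was 2.23 above the mean of the other lineages on the log2 scale (SE 0.17, adjusted p = 3.19e-10, edgeR). The epithelial level was 1.76 above the mean of the others. The gamma-delta T cells, at 42.6 ± 9.12, were the exception among immune gates, since the other tested immune gates averaged 0.688 to 5.24. Nr1d2 was more even, from 98.0 ± 24.4 in peribronchial fibroblasts to 8.38 ± 1.19 in neutrophils. Dbp was low throughout, from 15.7 ± 10.98 in alveolar fibroblasts to 1.74 ± 0.735 in nonclassical monocytes. In the controls alone Dbp averaged 8.14 ± 6.42 in alveolar fibroblasts, less than in gamma-delta T cells (13.3 ± 10.8) and ciliated cells (12.7 ± 5.07). Of the 40 tests of a clock gene in 1 lineage against the others, 36 passed an adjusted p under 0.05 in edgeR. Over all genes tested the share was 80.7% for endothelial, 82.5% for epithelial, 83.3% for mesenchymal and 87.3% for immune cells, so that a share of this size was usual for these lineages. The order of the 19 gates was mostly gradual. Of the 18 neighbouring steps in each order, the ranges over the 6 libraries overlapped in all 18 for Npas2, Per2, Nr1d1 and Dbp, in 17 for Per1 and Cry1, in 16 for Arntl, Per3 and Nr1d2 and in 15 for Clock.

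**Figure D1:**
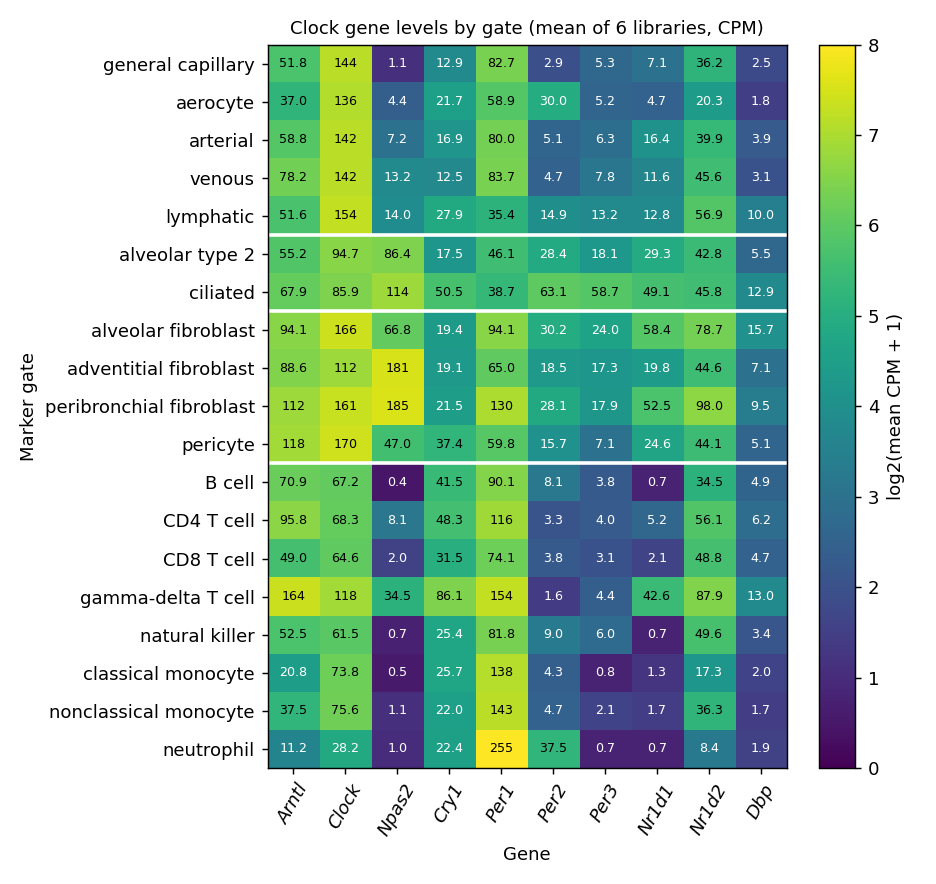
Mean level of each clock gene in CPM over the 6 libraries, by gene (columns) and marker gate (rows), with the number in each cell and the colour on a log2 scale. White lines separate endothelial, epithelial, mesenchymal and immune gates; the Npas2 column runs from 0.388 in B cells to 185 in peribronchial fibroblasts, and Per1 peaks at 255 in neutrophils.

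Promoter sequence is shown for the clock genes in which a short clock-related motif was found by letter match in the 250 bases before a RefSeq start (GRCm38.p6), and for Ciart, which encodes CHRONO, a repressor of BMAL1. Promoters were matched by symbol for 9 of the 10 clock genes, with 13 start sites in all. The motifs searched on both strands were the E-box CACGTG, bound by BMAL1 with its partners, the D-box TTATGTAA or TTACGTAA, bound by DBP and its relatives, TAGGTCA, bound by REV-ERB proteins, and the cAMP response element TGACGTCA. No printed match overlaps another. The Per1 window lies inside the span that GENCODE M21 gives the gene (chr11:69095217-69109960), and the other windows lie at the 5′ ends of their genes. Capitals mark the match, and each run is written 5′ to 3′ on the strand of its gene. Per1 (chr11:69098699-69098948, plus strand) held 1 E-box that starts 166 bases before the start site, Cry1 (chr10:85185055-85185304, minus strand) 1 E-box at 60 bases, Per3 (chr4:151044666-151044915, minus strand) 2 D-boxes at 205 and 158 bases and Ciart (chr3:95882229-95882478, minus strand) 3 E-boxes at 116, 58 and 44 bases.
Per1: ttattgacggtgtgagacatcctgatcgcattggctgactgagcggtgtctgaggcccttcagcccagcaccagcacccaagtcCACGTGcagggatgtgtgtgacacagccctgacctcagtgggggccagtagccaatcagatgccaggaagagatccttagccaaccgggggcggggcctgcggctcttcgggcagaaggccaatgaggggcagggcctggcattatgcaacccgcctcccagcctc
Cry1: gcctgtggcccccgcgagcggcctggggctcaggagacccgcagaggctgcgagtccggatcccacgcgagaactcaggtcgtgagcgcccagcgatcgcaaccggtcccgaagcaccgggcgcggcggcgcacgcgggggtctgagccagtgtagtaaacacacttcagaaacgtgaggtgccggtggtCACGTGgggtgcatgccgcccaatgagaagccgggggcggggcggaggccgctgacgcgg
Per3: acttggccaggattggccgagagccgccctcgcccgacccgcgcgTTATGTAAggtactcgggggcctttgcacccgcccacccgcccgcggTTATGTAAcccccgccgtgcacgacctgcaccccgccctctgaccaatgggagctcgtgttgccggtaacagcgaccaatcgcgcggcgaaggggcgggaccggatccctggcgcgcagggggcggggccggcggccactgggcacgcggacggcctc
Ciart: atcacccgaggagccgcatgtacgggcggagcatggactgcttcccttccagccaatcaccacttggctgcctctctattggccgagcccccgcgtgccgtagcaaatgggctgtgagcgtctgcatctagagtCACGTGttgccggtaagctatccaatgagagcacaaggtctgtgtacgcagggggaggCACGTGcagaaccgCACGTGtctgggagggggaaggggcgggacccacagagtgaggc

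Among 32851 RefSeq promoters cut to the same length, 6.02% held the E-box, 0.931% the D-box, 2.23% TAGGTCA and 1.55% the cAMP response element. Of the 13 start sites of the clock genes, 2 held the E-box, 1 the D-box and 0 either of the other motifs. A match is a description of these letters in this window and says nothing of binding in these libraries.

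Over all retained cells, no clock gene passed an adjusted p under 0.05 between the groups, while the mean of Arntl and Npas2 was lower and that of Nr1d1 and Dbp higher in the p16-DTR-labelled libraries. Npas2 stood at 26.2, 18.4 and 18.9 CPM in the p16-DTR-labelled libraries and at 91.0, 28.9 and 50.0 in the controls. Each of the former was below each of the latter, and the controls themselves ranged widely, with control replicate 1 highest and control replicate 2 lowest. The fitted log2 fold change of Npas2 was -1.37 (SE 0.41, adjusted p = 0.152, edgeR), and its unadjusted p was 0.0148. Without control replicate 1 it was -0.84. In sums over all cells, fewer cells of a type and less RNA per cell cannot be told apart. With the same number of cells of each gate drawn from every library, the log2 fold change of Npas2 was -0.97, and 0 clock genes passed in edgeR, where 0.104% of all genes did.

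Arntl had the same order as Npas2 among the controls. It stood at 54.0, 51.6 and 57.0 CPM in the p16-DTR-labelled libraries and at 98.9, 61.1 and 76.6 in the controls, without overlap (log2 fold change -0.49, SE 0.17, adjusted p = 0.180, edgeR). Without control replicate 1 the log2 fold change of Arntl was -0.29. Clock (117, 119 and 116 against 133, 124 and 126) and Cry1 (17.9, 21.7 and 21.4 against 26.7, 21.8 and 25.5) also did not overlap, though Cry1 of p16-DTR replicate 2 lay next to control replicate 2. Their log2 fold changes were -0.07 (SE 0.05) and -0.23 (SE 0.10), and that of Clock was -0.03 without control replicate 1 and -0.0093 with equal cell makeup. Without p16-DTR replicate 1 that of Cry1 was -0.15. These 4 genes were thus below the control range in every p16-DTR-labelled library. Among all 21630 genes tested, 22.5% were placed in that way and 8.58% in the opposite way.

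Dbp, the output factor, showed the reverse order. It stood at 7.56, 12.7 and 7.84 CPM in the p16-DTR-labelled libraries and at 2.74, 7.62 and 4.25 in the controls. Control replicate 2 reached the level of p16-DTR replicate 1, so the groups overlapped (log2 fold change 0.99, SE 0.39, adjusted p = 0.203, edgeR). Nr1d1 was 26.7, 29.5 and 22.9 against 13.7, 26.1 and 16.6, where control replicate 2 again lay among the p16-DTR-labelled libraries (log2 fold change 0.54, SE 0.24, adjusted p = 0.231, edgeR). Leaving out single libraries moved the log2 fold change between 0.71 and 1.47 for Dbp and between 0.36 and 0.85 for Nr1d1, with the highest of each without control replicate 2 and the lowest without control replicate 1. Nr1d2, its paralogue, overlapped fully, at 43.6, 57.2 and 47.3 against 38.6, 53.6 and 45.6 (log2 fold change 0.15, SE 0.14). Its log2 fold change was 0.047 without control replicate 1, 0.27 without control replicate 2, 0.039 without p16-DTR replicate 2 and 0.24 with equal cell makeup.

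The 3 period genes overlapped between the groups. Per1 was 101, 96.7 and 103 CPM in the p16-DTR-labelled libraries and 83.9, 99.4 and 98.0 in the controls (log2 fold change 0.15, SE 0.07, adjusted p = 0.265, edgeR). Per2 (15.9, 24.4 and 13.7 against 14.3, 16.8 and 16.9) and Per3 (11.4, 16.3 and 9.14 against 9.48, 13.4 and 10.3) each owed their highest value to p16-DTR replicate 2. Without that library, the fitted log2 fold change of Per2 went from 0.22 to -0.05 and that of Per3 from 0.20 to -0.05. With equal cell makeup the log2 fold changes were 0.41 for Per2, 0.46 for Per3 and 0.05 for Per1, and without control replicate 1 that of Per1 was 0.078.

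Of the 10 clock genes, 0 passed over all cells in edgeR, where 0.0% of all genes passed. At an unadjusted p under 0.05 there were 3 (Arntl, Npas2 and Dbp), where 23.3% of all genes were under that value. DESeq2 called 1, Npas2 (log2 fold change -1.36, adjusted p = 0.0116, DESeq2), where it called 12.8% of all genes. The genes that act on the clock gave 0 calls as well. Of 10 further clock regulators, 2 lay above and 5 below the control range, beside 8.58% and 22.5% of all genes, with a median log2 fold change of 0.04 beside -0.01 for all genes. Cry2, the other cryptochrome, was below it (48.1, 50.2 and 40.4 against 59.5, 57.8 and 56.3). Within alveolar fibroblasts, venous cells and CD4 T cells Cry2 overlapped between the groups, with log2 fold changes of 0.02, 0.05 and -0.13. Over all cells Ciart was above the control range (9.75, 10.1 and 10.7 against 4.81, 8.07 and 6.68, log2 fold change 0.69, SE 0.18). Of 6 clock output genes (Tef, Hlf, Nfil3, Usp2, Wee1 and Nampt), 2 lay above the control range, Wee1 and Nampt, and 0 below it.

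Some genes that answer to stress hormones, cold or tissue handling were high or low in the same libraries. Fkbp5, a glucocorticoid-induced chaperone partner, was 174, 120 and 225 CPM in the p16-DTR-labelled libraries and 46.5, 98.2 and 82.6 in the controls, lowest in control replicate 1. Of 6 glucocorticoid-induced genes, 3 lay above the control range, as 8.58% of all genes did, and 0 below it. Of 7 immediate early genes, 4 lay below it, as 22.5% of all genes did, among them Egr1 (752, 737 and 614 against 1608, 988 and 1180), and Cirbp, an RNA-binding protein induced by cold, also lay below it (49.4, 41.9 and 54.6 against 75.7, 70.9 and 73.2). None of these passed the test over all cells. Their part in the clock genes' values was not tested.

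**Figure D2:**
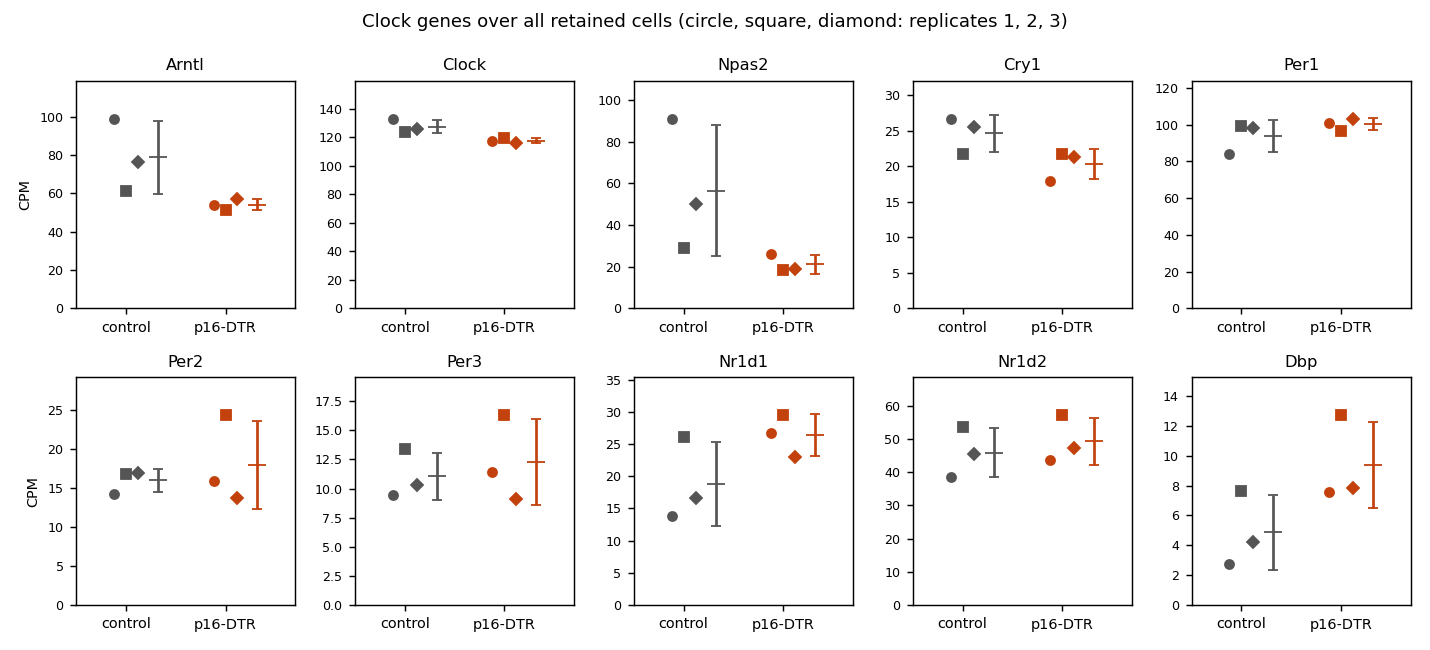
Level of each clock gene in CPM over all retained cells, 1 panel per gene, with 1 point per library and the mean and SD of the 3 libraries of a group beside the points. Npas2, Arntl, Clock and Cry1 do not overlap between groups, and control replicate 2 (square) lies nearer the p16-DTR-labelled libraries than control replicate 1 (circle) for Npas2, Arntl, Nr1d1 and Dbp.

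Within cell types, 2 of the 178 tested pairs of a clock gene and a gate passed an adjusted p under 0.05 in edgeR, where 0.366% of all gene and gate pairs passed. Both were lower in the p16-DTR-labelled libraries. They were Npas2 in venous endothelium and Per1 in CD4 T cells. At an unadjusted p under 0.05 there were 33 pairs, 18.5% of those tested, beside 13% of all gene and gate pairs. The groups did not overlap in 31 pairs, 17.4%, beside 18.7% of all pairs, which is no more than usual. A further 12 pairs, such as Npas2 in B cells and Nr1d1 in neutrophils, had too few UMIs to be tested.

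In venous endothelial cells (2849 cells), Npas2 (chr1:39193731-39363236, plus strand, GRCm38) was 5.03, 7.28 and 9.07 CPM in the p16-DTR-labelled libraries and 19.5, 17.3 and 20.9 in the controls. The groups lay far apart, the lowest control at 17.3 and the highest p16-DTR-labelled library at 9.07. Npas2 fell by 1.42 on the log2 scale (SE 0.19, adjusted p = 0.0147, edgeR), in a gate where 1.26% of genes were called lower. Without control replicate 1 the adjusted p was 0.0512 at a log2 fold change of -1.41.

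Cry1, the repressor partner, was also low in the same venous libraries, at 9.83, 10.0 and 8.07 against 16.8, 17.6 and 12.8. It did not pass the test (log2 fold change -0.71, SE 0.16, adjusted p = 0.0624, edgeR). It passed only with no filter on low counts (adjusted p = 0.0202, edgeR) and without control replicate 3 (log2 fold change -0.85, adjusted p = 0.0481, edgeR). The other 8 clock genes overlapped between groups there. The venous gate held few epithelial and immune transcripts, with sums of the 5 lineage markers of at most 8.55 and 24 CPM, while the 5 mesenchymal markers summed to 347 to 407 in the p16-DTR-labelled libraries and 331 to 363 in the controls. None of those 5 separated the groups. Of the 5 endothelial markers, which define the lineage, 2 lay above the control range, and of the 5 immune markers 1 lay above and 1 below it. Their part in the Npas2 result was not tested. As a low reference, Npas2 in B cells was 0.121, 0.0879 and 0.143 CPM in the p16-DTR-labelled libraries and 0.704, 0.200 and 1.07 in the controls. These values also lay below the control range, but they rest on 4 and 25 UMIs and were not tested.

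Other listed genes passed the test in venous cells. Cirbp fell from 87.1, 82.1 and 79.2 CPM in the controls to 47.6, 45.0 and 49.7 (log2 fold change -0.77, SE 0.07, adjusted p = 0.00505, edgeR). The immediate early genes Egr1 (-1.08, adjusted p = 0.0205, edgeR) and Ier2 (-0.55, adjusted p = 0.0340, edgeR) fell too, and Hspa1b, a heat shock chaperone, rose (1.07, adjusted p = 0.0354, edgeR), where 1.02% of genes were called higher in this gate. With adjustment over all gates Cirbp passed in edgeR, and Egr1 (0.0588), Ier2 (0.0868) and Hspa1b (0.0893) did not.

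Among listed genes that did not pass in venous cells, the glucocorticoid-induced Fkbp5 (log2 fold change 1.56), Tsc22d3 (0.78) and Zbtb16 (1.03) lay above the control range and Sgk1 (-0.50) below it. The clock outputs Hlf (-0.93), Nfil3 (-0.51) and Usp2 (-1.31) lay below it, 3 of 6. Of 10 further clock regulators 3 lay above it and 1 below, and of 7 immediate early genes 5 lay below it, with Egr1 and Ier2 among them. Over all genes tested in this gate 9.05% lay above and 13.8% below. The part of these genes in the Npas2 result was not tested.

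In CD4 T cells (1911 cells), Per1 was 91.6, 101 and 108 CPM in the p16-DTR-labelled libraries and 133, 134 and 131 in the controls. The controls were nearly equal, and every p16-DTR-labelled library lay below them. The log2 fold change of Per1 was -0.42 (SE 0.07, adjusted p = 0.0429, edgeR), where 0.548% of genes were called lower in this gate. The call did not hold when any 1 library was left out, with adjusted p from 0.0721 to 0.153 in edgeR and log2 fold changes from -0.48 to -0.37. It was also lost with library sizes alone (adjusted p = 0.0557, edgeR), with adjustment over all gates (0.0750) and with a replicate block (0.0679). The mix of T cell states in this gate was not held equal between libraries, and a check of it is not reported here. CD8 T cells gave the same order without a call, at 65.0, 66.0 and 64.7 against 76.2, 85.1 and 87.9 (log2 fold change -0.35, SE 0.08, adjusted p = 0.195, edgeR), in a gate where 0.0% of genes were called lower.

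The 5 endothelial markers summed to 172 to 216 CPM in the CD4 gate of the p16-DTR-labelled libraries and 251 to 289 in the controls. Of these 5, 1 lay below the control range and 1 above it. The 5 immune markers, which define the lineage, summed to 4797 to 4947 against 4426 to 4551, with 3 above the control range. The 5 epithelial markers summed to 7.94 to 13.2 against 7.01 to 15.1, with 1 below it, and the 5 mesenchymal markers to 13.3 to 23.4 against 14.8 to 25.2, with 0 above or below it in every library. None of these markers was at 0 in all 6 libraries, and their part in the Per1 result was not tested.

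The immediate early genes Jun, Junb, Egr1 and Ier2 (4 of 7) also lay below the control range in CD4 T cells. Of all genes 8.19% lay below it, and none of these 4 passed the test. Tsc22d3, Klf9 and Errfi1 (3 of 6 glucocorticoid-induced genes) lay above it, the opposite way to Per1. Of all genes 11.3% lay above it, and none of these 3 passed the test. Hlf, a PAR bZIP relative of Dbp, did pass there, at 30.9, 25.3 and 23.7 against 44.0, 46.7 and 63.4 (log2 fold change -0.996, SE 0.17, adjusted p = 0.0419, edgeR). It did not pass with adjustment over all gates (adjusted p = 0.0722, edgeR). Of the 6 clock outputs, 2 lay above the control range, Tef and Nampt, and 2 below it, Hlf and Nfil3. Dbp overlapped between the groups (4.81, 6.00 and 7.18 against 5.98, 7.78 and 5.70). Their part in the Per1 result was not tested.

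**Figure D3:**
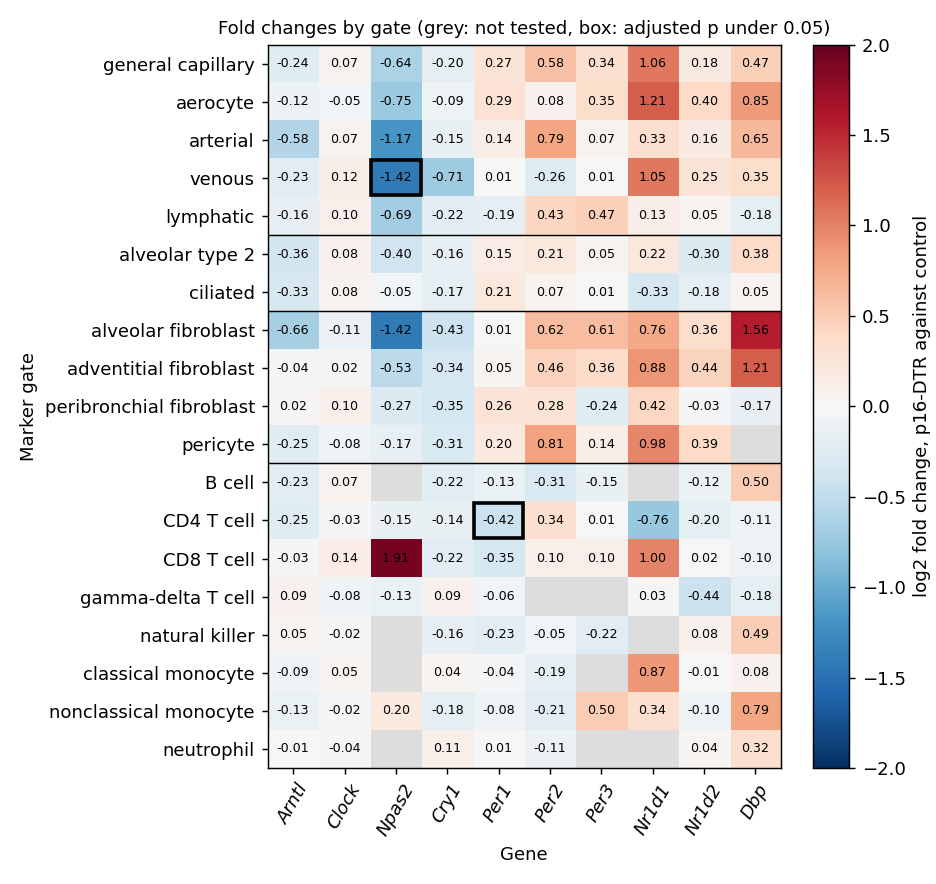
Log2 fold change of each clock gene (columns) in each marker gate (rows), p16-DTR-labelled libraries against controls, 3 against 3. Black boxes mark the 2 pairs with an adjusted p under 0.05, Npas2 in venous cells at -1.42 and Per1 in CD4 T cells at -0.42, and grey cells had too few UMIs to be tested.

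Alveolar fibroblasts, the most numerous gate with 19610 cells, were chosen for a full account after their values were seen. There Npas2 was 42.7, 24.3 and 41.3 CPM in the p16-DTR-labelled libraries and 149, 47.3 and 96.2 in the controls. Arntl was 70.5, 58.2 and 88.8 against 150, 78.7 and 119. Both were highest in control replicate 1, and only Npas2 separated the groups.

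On the opposite arm, Dbp was 17.7, 34.2 and 17.8 against 2.99, 15.3 and 6.09, and Nr1d1 was 72.7, 79.4 and 66.9 against 25.0, 63.9 and 42.4. For both, every p16-DTR-labelled library lay above every control, by a narrow margin over control replicate 2. The fitted log2 fold changes were -1.42 (SE 0.39) for Npas2, -0.66 (SE 0.23) for Arntl, 1.56 (SE 0.55) for Dbp and 0.76 (SE 0.29) for Nr1d1. None passed in edgeR, with adjusted p from 0.0992 for Npas2 to 0.179 for Nr1d1, in a gate where 0.129% of genes passed. Without control replicate 1 the log2 fold change of Npas2 was -0.96 (adjusted p = 0.262, edgeR), and without control replicate 2 it was -1.73 (adjusted p = 0.0498, edgeR). Without control replicates 1 and 2 in turn, Arntl was at -0.42 and -0.86, Dbp at 1.145 and 2.405, and Nr1d1 at 0.48 and 1.15. Dbp was at 1.17 without p16-DTR replicate 2. Ciart, at 1.27, 3.56 and 4.13 against 0.459, 1.21 and 0.576, also separated the groups (log2 fold change 2.05, SE 0.50, adjusted p = 0.0837, edgeR). Of the 10 further clock regulators, 2 lay above the control range, Ciart and Csnk1e, and 2 below it, Csnk1d and Btrc. Their median log2 fold change was 0.02.

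In this gate 4 of the 10 clock genes did not overlap between groups, 2 above and 2 below, where 27.1% of all genes did not overlap. The fourth was Clock, at 157, 154 and 164 against 175, 167 and 178. Fkbp5, Tsc22d3, Zbtb16, Sgk1 and Errfi1 (5 of 6 glucocorticoid-induced genes) lay above the control range. So did Hspa1b and Hsph1 (2 of 4 heat shock genes) and Wee1 (1 of 6 clock outputs). Cirbp and Rbm3 (2 of 2 cold-inducible genes) lay below it, as did Junb and Egr1 (2 of 7 immediate early genes). None of these passed the test in this gate. The 5 mesenchymal markers, which define the lineage, summed to 4384 to 4806 CPM in the p16-DTR-labelled libraries and 3752 to 3862 in the controls, with 4 of the 5 above the control range. The 5 immune markers summed to 17.6 to 20.7 against 12.5 to 15.8, with 3 above it, and the 5 endothelial markers to 22.9 to 27.4 against 17.5 to 22.7, with 1 above it. The 5 epithelial markers summed to 1.397 to 1.699 against 2.01 to 2.41, with 1 below it, and none of these markers was at 0 in all 6 libraries. Their part in the clock genes' values was not tested. The gate held 2251 to 3142 cells in the p16-DTR-labelled libraries and 2564 to 5449 in the controls, with the most in control replicate 1. With the whole gate left out, a check chosen after the values were seen, the log2 fold change over all cells went from -0.07 to 0.03 for Clock and from 0.20 to -0.03 for Per3. It went from -0.49 to -0.28 for Arntl, from 0.99 to 0.59 for Dbp and from 0.22 to 0.03 for Per2. For Npas2 it went from -1.37 to -1.10, for Nr1d1 from 0.54 to 0.49 and for Cry1 from -0.23 to -0.17. For Per1 it went from 0.15 to 0.19 and for Nr1d2 from 0.15 to 0.11, and 0 clock genes passed in edgeR.

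**Figure D4:**
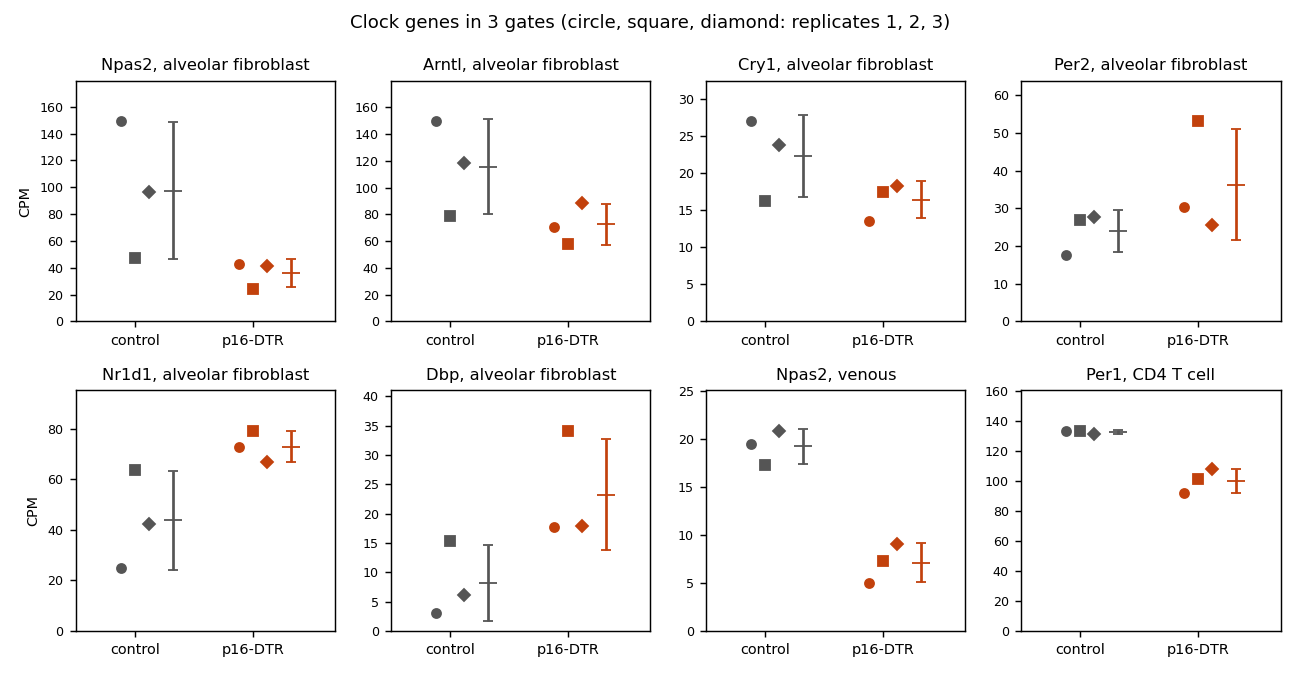
Level in CPM of 6 clock genes in alveolar fibroblasts, of Npas2 in venous cells and of Per1 in CD4 T cells, with 1 point per library and the mean and SD of 3 libraries beside them. In alveolar fibroblasts the controls spread from 47.3 to 149 for Npas2 and from 2.99 to 15.3 for Dbp, whereas in the venous and CD4 panels the controls lie close together.

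The position of single libraries recurred across cell types. For Dbp, control replicate 2 was the highest control in 16 of 19 gates and control replicate 1 the lowest in 13. For Arntl and Npas2 the order was the other way round, with control replicate 1 the highest control in 13 and 12 gates and control replicate 2 the lowest in 12 and 13. Among the p16-DTR-labelled libraries, replicate 2 was highest in 12 of 19 gates for Dbp, 12 for Per3, 13 for Per2 and 14 for Nr1d2. Control replicate 1 also stood furthest from the other controls by the chi-square given above, which is not limited to clock genes. The share of all genes with such orders was not computed.

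A within-library ratio restates these values without reference to library size. It sets genes with a higher mean in the p16-DTR-labelled libraries over genes with a lower mean there. Its order thus follows from the values above and is no separate support, and no share over other gene pairs was computed. In UMIs over all cells, Dbp to Arntl was 0.140, 0.246 and 0.138 in the p16-DTR-labelled libraries and 0.0277, 0.125 and 0.0554 in the controls. In alveolar fibroblasts it was 0.250, 0.587 and 0.201 against 0.02, 0.195 and 0.0514. The ratio of Nr1d1 to Npas2 was 1.02, 1.60 and 1.22 against 0.151, 0.905 and 0.332 over all cells. Control replicate 2 lay closest to the p16-DTR-labelled libraries in each of these, and the groups did not overlap. In epithelial cells the ratio of Dbp to Arntl did overlap (0.145, 0.212 and 0.148 against 0.0592, 0.190 and 0.104), as did that of Nr1d1 to Npas2 (0.411, 0.403 and 0.454 against 0.302, 0.580 and 0.310). The groups also overlapped in Dbp to Arntl in endothelial cells (0.0451, 0.0905 and 0.0756 against 0.0314, 0.0636 and 0.0360) and, narrowly, in mesenchymal cells, where p16-DTR replicate 3 was at 0.1757 and control replicate 2 at 0.1764. Nr1d1 to Npas2 overlapped in immune cells too (1.49, 1.27 and 0.635 against 0.755, 1.34 and 0.695). Such a ratio sets UMIs of 2 genes against each other and is read only between libraries.

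Direction differed little between gates for some genes and much for others. Arntl had a negative log2 fold change in 16 of 19 gates, with 6 at an unadjusted p under 0.05, and Cry1 likewise in 16 of 19, with 4. Npas2 was negative in 13 of 15 tested gates, and the exceptions were CD8 T cells at 1.91 (SE 0.89) and nonclassical monocytes at 0.20 (SE 0.73). Npas2 was low in both, at most 5.91 and 2.08 CPM in any library, and as low in some gates with a negative value, at most 1.74 in general capillary cells and 6.19 in aerocytes. Nr1d1 was positive in 14 of 16 gates and Dbp in 13 of 18. Clock and Per1 were each positive in 11 of 19. The gates share their 6 mice, so these counts are not independent.

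Some gates went against the direction over all cells at an unadjusted p under 0.05. Per1 in CD4 T cells (-0.42) and CD8 T cells (-0.35), given above, lay opposite to its all-cell value of 0.15. Nr1d1 was 5.71, 3.75 and 2.60 in CD4 T cells of the p16-DTR-labelled libraries against 7.03, 6.02 and 6.35, and 47.9, 44.1 and 36.8 in ciliated cells against 59.6, 56.7 and 49.4. The groups did not overlap in either gate, with log2 fold changes of -0.76 and -0.33 where the all-cell value was 0.54. Nr1d2 was likewise lower in CD4 T cells, at 54.7, 49.6 and 53.8 against 58.8, 57.2 and 62.4. Nr1d2 in alveolar type 2 cells (log2 fold change -0.30, SE 0.13) and in gamma-delta T cells (-0.44, SE 0.18) overlapped between groups. None of these Nr1d1 and Nr1d2 differences passed the adjusted threshold in edgeR, where their adjusted p ran from 0.356 to 0.833. In CD4 T cells and ciliated cells Arntl also lay below the control range, as it did over all cells. It stood at 89.2, 88.6 and 86.9 against 113, 104 and 92.9 in CD4 T cells (adjusted p = 0.231, edgeR). In ciliated cells it stood at 55.9, 57.0 and 66.8 against 80.8, 74.0 and 73.1 (adjusted p = 0.344, edgeR).

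Whether the group difference itself varied between lineages was tested with an interaction term, each lineage against endothelium. Of 30 such tests of clock genes, 0 passed in edgeR, where 0.195% (epithelial), 0.11% (mesenchymal) and 0.25% (immune) of all genes passed, and 6 had an unadjusted p under 0.05, where 11.1%, 9.35% and 12.4% of all genes did. The nearest was Npas2 in immune cells, whose log2 fold change exceeded the endothelial one by 1.30 (SE 0.28, adjusted p = 0.0727, edgeR). Npas2 averaged 3.26 ± 0.812 and 3.15 ± 0.583 in immune cells of the p16-DTR-labelled libraries and of the controls (SD, n = 3), and 2.41 ± 0.371 and 5.80 ± 1.19 in endothelial cells. In epithelial cells Npas2 averaged 83.5 ± 8.90 and 102 ± 28.9, a log2 fold change 1.03 above the endothelial one (SE 0.26, adjusted p = 0.134, edgeR). For Dbp, the mesenchymal value exceeded the endothelial one by 1.11 (SE 0.34, adjusted p = 0.260, edgeR), from 20.7 ± 8.65 and 7.65 ± 5.83 in mesenchymal cells.

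Across the 114 values of 19 gates and 6 libraries, with each gate's mean removed from log2 values, some clock genes varied together and others did not. Nr1d1 and Nr1d2 varied together (Pearson r = 0.72), and Dbp varied with each of them (0.51 and 0.51). Arntl varied with Npas2 (0.42) and with Cry1 (0.37), a gene of the repressing part. Negative values were found for Arntl and Per2 (-0.48), Arntl and Dbp (-0.46) and Cry1 and Nr1d1 (-0.41). Clock stayed near 0 with every other clock gene, between -0.19 for Dbp and 0.14 for Arntl, its partner. The points share 6 mice and their depth, and the differences between groups and libraries were left in. These are therefore descriptions over 114 values with no p.

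By the same measure, the 5 genes most like Dbp among 7070 that passed the filter on low counts in all 19 gates were Nr1d2 (0.51), Prpf38b (0.50), Wdfy1 (0.48), Taok2 (0.48) and Notch1 (0.47). Those most like Arntl among 7069 were Pnrc1 (0.63), Topors (0.58), Rlim (0.56), Nasp (0.55) and Ripk1 (0.54). Nr1d1 was tested in 16 gates and so was not among these candidates, and its correlation with Dbp (0.513) was slightly above that of Nr1d2 (0.507). No clock gene was among the 5 for Arntl.

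**Figure D5:**
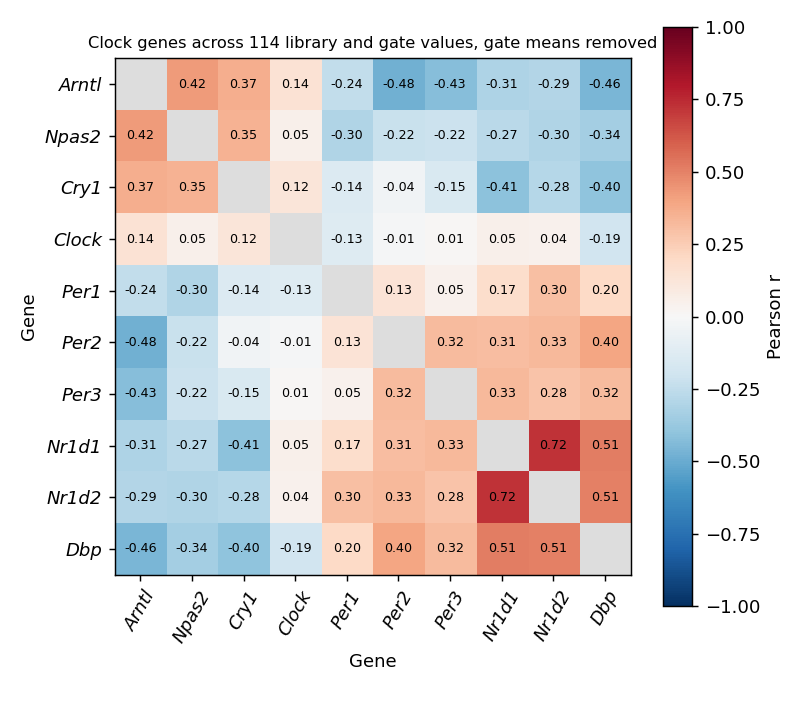
Pearson correlation between clock genes (both axes) across 114 values, 19 gates in each of 6 libraries, of log2 CPM after the mean of each gate was removed. Nr1d1, Nr1d2 and Dbp are positively correlated (0.51 to 0.72), Arntl with Npas2 at 0.42, and Arntl and Dbp negatively at -0.46.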

How the data were processed

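For each of 6 lung libraries the authors deposited a matrix of raw UMI counts, genes by barcodes, made with Cell Ranger 8.0.1 and mm10 per the submitters' processing notes. The annotation release and the cell-calling settings are not given in the sources used here. A barcode was retained from 300 genes and 500 UMIs upward when mitochondrial UMIs were not over 15%, which gave a median per library of 17091 to 18496 UMIs. A lineage needed 3 of its 5 markers and 80% of the lineage-marker UMIs. A gate needed 3 of its own markers and a unique lead. No doublet caller was run, and the 80% rule drops cells of mixed lineage. Whole-number counts were summed per library, and per library and gate with at least 50 cells in each, so that mice and not cells were the replicates.

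The sums were tested with edgeR 4.0.16 (R 4.3.3, filterByExpr, TMM, quasi-likelihood, 3 against 3, Benjamini-Hochberg at 0.05 over all genes), with DESeq2 1.42.0 as an alternative. CPM values use the plain total, while fold changes use TMM. Lineage tests used the 24 sums of library and lineage, with the library as a block. Other settings tried were RLE or library-size scaling, no filter on low counts, a stricter cell filter (1000 UMIs, 5%), equal makeup, 1 more gate marker, adjustment over all gates, each library left out and a block on the replicate number. The fits were tested on simulated data. Motif positions come from RefSeq promoters of GRCm38.p6, and mm10 is the same assembly.

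The clock genes and lists were chosen with earlier results of these data known. All 10 clock genes are named. Other genes come from the lists of clock regulators, clock outputs, glucocorticoid-induced, cold-inducible, heat shock and immediate early genes, and the 5 most like Dbp and Arntl. Gates in which a gene went against its all-cell direction are given where the unadjusted p was under 0.05, and otherwise as counts. Of 2 cold-inducible and 4 heat shock genes, 0 passed over all cells. By GENCODE M21, Nr1d1 overlaps Thra and Dbp overlaps Sphk2 on the other strand, and Per3 overlaps Camta1 on the same strand, so their counts are less certain. Nothing in the labels says that replicate numbers are shared between groups. One gene of the clock regulator list, and a check of the CD4 gate that used it, are not reported here.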

Additional observations from a re-analysis of the deposited data

Results flagged for a closer look

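Per2 and Nr1d1 separated the groups completely in opposite directions in different gates, in 4 of 18 and 4 of 16 tested gates. These counts are near the 18.7% of all gene and gate pairs without overlap. For Per2, every p16-DTR-labelled library lay above every control in adventitial fibroblasts (log2 fold change 0.464), lymphatic endothelium (0.43) and pericytes (0.812), and below every control in B cells (-0.306). For Nr1d1, every p16-DTR-labelled library lay above every control in alveolar fibroblasts (0.761) and classical monocytes (0.87), and below every control in CD4 T cells (-0.76) and ciliated cells (-0.331). None of these 8 passed an adjusted p under 0.05 in edgeR within its gate. The difference between these gates was not tested. Classical monocytes held at most 1.99 CPM of Nr1d1 in any library. Per2 had an unadjusted p of 0.0966 in B cells and 0.0531 in lymphatic endothelium (edgeR). In pericytes Per2 was 14.2, 30.3 and 15.7 CPM against 10.3, 10.1 and 13.6 in the controls, highest by far in p16-DTR replicate 2.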

How the results depend on the processing

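The number of clock genes passing over all cells was 0 under every setting run except DESeq2, which gave 1. Over the gates, 2 pairs passed in edgeR, beside 0.366% of all gene and gate pairs. DESeq2 gave 4 (beside 2.3% of all pairs), no filter on low counts 6 (1.68%), adjustment over all gates 1 (0.149%) and library sizes alone 1 (0.516%), and leaving out single libraries gave 0 to 2 (0.037% to 0.433%), with 0 without control replicate 1, where the share of all pairs was lowest. The pair lost under adjustment over all gates and library sizes alone was Per1 in CD4 T cells. The cause was not tested. Npas2 in venous cells lost its call only without control replicate 1 (adjusted p = 0.0512, edgeR). Npas2 in alveolar fibroblasts passed with DESeq2, without control replicate 2 (log2 fold change -1.73) and with a replicate block, and stood at -0.96 without control replicate 1. Over all cells, leaving out single libraries gave log2 fold changes of -0.055 to 0.382 for Per2 and -0.0504 to 0.373 for Per3, each negative only without p16-DTR replicate 2. Without alveolar fibroblasts the sign turned for Clock (0.0311) and Per3 (-0.026). Same-numbered libraries of the groups correlated at 0.293, -0.0464 and 0.308, and unlike-numbered ones at -0.382 to 0.0836. The numbers were not taken as pairs because the labels do not give them as shared. Whether they mark a shared effect was not tested. With a block on the number, the SE over all cells was lower for every clock gene except Cry1 and Per1. It was 0.17 beside 0.39 for Dbp, 0.23 beside 0.41 for Npas2 and 0.045 beside 0.14 for Nr1d2. For Cry1 it was 0.12 beside 0.10 and for Per1 0.0733 beside 0.0724. With a replicate block 0 clock genes passed over all cells and 2 pairs over the gates, Npas2 in venous cells and in alveolar fibroblasts, while Per1 in CD4 T cells had an adjusted p of 0.0679 (edgeR). The lineage counts, 36 and 0, stayed within 1.5 times under every setting run. With 3 libraries against 3, an exact permutation test of 1 gene cannot go below p = 0.1.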
